A study of Rattus norvegicus with 15 samples.

Results

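The cAMP signalling genes examined here were 3 families of phosphodiesterase (Pde8a, Pde3b, Pde4b and Pde4d), the adenylyl cyclases Adcy3 and Adcy6, the protein kinase A (PKA) genes Prkaca, Prkar1a and Prkar2b, and Gnas, which encodes the stimulatory G protein alpha subunit. A probe set, the group of probes that reads 1 transcript region, counted as a member where the platform annotation named exactly 1 gene and that gene was on this list. The 10 genes, of 14217 that the annotation names, had 19 such probe sets of 31099 on the array. The list was chosen by the obese to lean log2 fold changes of these same arrays as well as by pathway, and Pde8a was on it because of its difference. Differences of members between the groups are therefore given as a description, with no p-value.

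Fat tissue from the epididymal depot, which lies beside the testis, was taken from male Long-Evans rats of a private colony and read on Affymetrix RAE230_2 arrays, 1 array per rat. The obese group held 7 rats fed a high fat and high sucrose diet from weaning, and the lean group held 8 rats fed regular chow from weaning. Rats of both groups arrived at 14 weeks of age, were housed singly with free access to food and water, had an oral glucose test, and were fed when they were killed at 26 weeks of age. Diet and obesity changed together in this model and cannot be told apart.

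All 12 adipocyte markers were above the filter on low signals, and Adipoq, the fat hormone adiponectin, had mean signals of 54123 in obese and 57349 in lean rats. Obese rat 1 and lean rat 7, labelled as different groups, gave nearly identical arrays (r = 0.986 over 18625 probe sets). The other 104 pairs of arrays had r between 0.898 and 0.960. The labels do not settle which group these rats belong to, so values are given with all 15 arrays and again with 13 arrays, without this pair. Of 20 macrophage markers, 19 were above the filter. Their mean, centred over all rats on the log2 scale, ran from -0.28 to 1.15 in obese and from -0.60 to 0.03 in lean rats, a difference of 0.64 (exact permutation p = 0.00202, adjusted p = 0.00404 over 4 tests). The ratio of 3 prime to 5 prime signal of the Gapdh control probe sets, a measure of RNA quality, was 0.77 ± 0.28 in 7 obese and 1.05 ± 0.26 in 8 lean rats (log2, mean ± SD; exact permutation p = 0.0746, also 0.0746 adjusted). With 13 arrays the macrophage mean ran from 0.043 to 1.15 in 6 obese and from -0.60 to 0.025 in 7 lean rats, with no overlap. In that set the covariate nearly stands in for the group, so fits with it cannot separate the macrophage mean from the group. The part of both measures in the members' differences was not tested beyond the covariate fits given beside some of them.

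Cyclic AMP is made by adenylyl cyclases, which hormone receptors switch on through the stimulatory G protein and switch off through inhibitory G proteins. It binds the regulatory subunits of PKA and frees the catalytic subunits, and phosphodiesterases end the signal by breaking cAMP down. In fat cells this pathway carries the lipolytic signal of catecholamines to the lipases and to perilipin, and insulin opposes it in part through Pde3b. In the nucleus PKA phosphorylates CREB, a transcription factor that binds the cAMP response element.

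The promoter windows of the members are shown first for Pde8a, the member with the largest group difference, and for Prkaca, the PKA catalytic subunit, because both held the 5-base core of the cAMP response element (TGACG, or CGTCA on the other strand). The windows are the 250 bases before the annotated start in RefSeq, build GRCr8, written 5′ to 3′ on the gene's strand with each core in capitals. The Pde8a window is chr1:144575219-144575468 on the plus strand and the Prkaca window is chr19:41083190-41083439 on the minus strand.
Pde8a: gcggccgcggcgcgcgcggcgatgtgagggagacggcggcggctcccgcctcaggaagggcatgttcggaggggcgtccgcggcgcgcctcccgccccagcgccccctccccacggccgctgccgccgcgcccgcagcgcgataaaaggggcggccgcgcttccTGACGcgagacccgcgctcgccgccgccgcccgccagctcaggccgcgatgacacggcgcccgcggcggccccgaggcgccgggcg
Prkaca: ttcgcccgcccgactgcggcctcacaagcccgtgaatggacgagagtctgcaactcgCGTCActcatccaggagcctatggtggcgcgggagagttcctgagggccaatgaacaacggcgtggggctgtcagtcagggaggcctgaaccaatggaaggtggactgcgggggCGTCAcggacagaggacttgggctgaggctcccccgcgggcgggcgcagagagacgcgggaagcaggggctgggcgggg
The core in the Pde8a window began 86 bases upstream of the start. This window was rich in G and C, at 82.4% against a median of 51.2% over 33469 windows. Of the 10 members, 7 had 14 windows in the table, and the core was in 4 of them, from Pde8a, Prkaca and Pde4d. It was in 18.2% of all windows. The full element TGACGTCA, which contains the core on both strands, was in 0 of the 14 windows and in 1.59% of all windows. A match of letters is a description of the sequence and shows no binding.

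Across the members, 15 of the 19 probe sets passed the filter, and every gene kept at least 1. With 15 arrays 0 of the 15 passed the threshold of 0.05 on limma's Benjamini-Hochberg adjusted p, as did 0% of all probe sets tested. At an unadjusted limma p under 0.05 there were 2 of 15 members with 15 arrays, against 15.6% of all probe sets. The same count with 13 arrays was 4 of 15, 3 of them not of Pde8a, against 17.8% of all probe sets. With 13 arrays 1 of 15 passed the adjusted threshold, Pde8a probe set 1376057_at, which was higher in obese rats. This call was lost in 17 of 25 alternatives. Among them were quantile normalization, the Gapdh and macrophage covariates and 11 of the 13 fits that left out 1 rat. The rat-number block, which held only rats whose number occurred in both groups, also lost it. Of all probe sets tested with 13 arrays, 1.01% passed in either direction and 0.725% passed as higher in obese rats. Nothing is read from these counts, since the comparison chose the members.

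**Figure D1:**
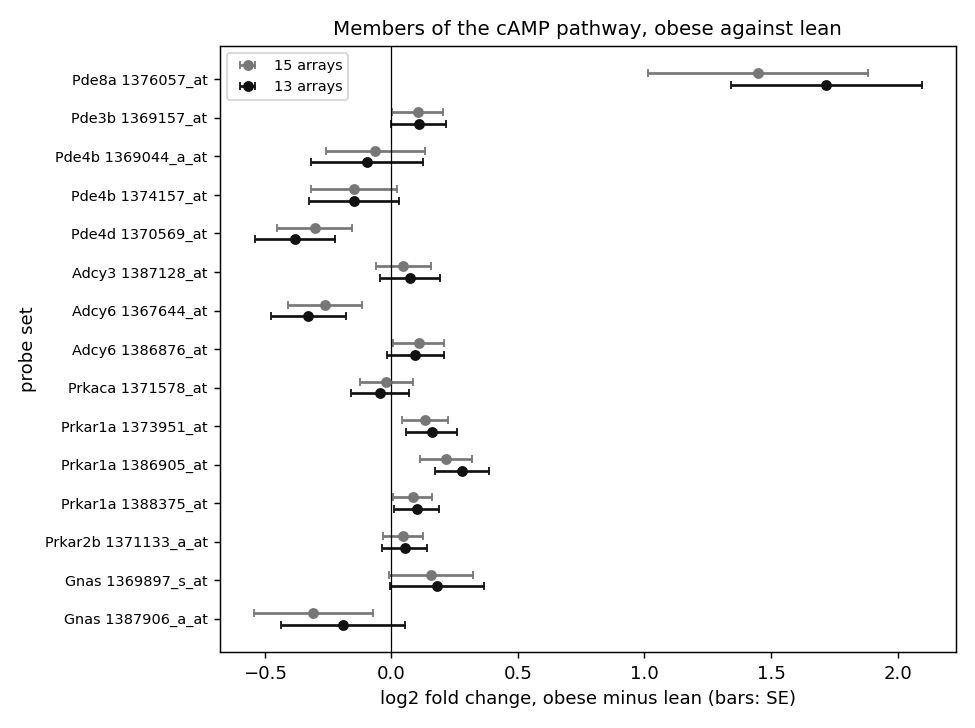
Log2 fold change, obese minus lean, of the 15 member probe sets above the filter, with 15 arrays (grey) and 13 arrays (black); bars are standard errors. Pde8a probe set 1376057_at stands at 1.45 and 1.72, and the other 14 lie between -0.38 and 0.28.

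The obese and lean values overlapped in all 15 member probe sets, with 15 and with 13 arrays. Over all probe sets the groups were fully apart in 0.193% with 15 arrays and in 1.45% with 13. Log2 fold changes of members were positive in 9 and negative in 6, in both sets of arrays, and 42.5% and 42.2% of all probe sets were positive. The members' median was 0.05 with 15 arrays and 0.08 with 13, and that of all probe sets was -0.04 in both. When arrays were centred on their medians, the median over all probe sets went from -0.04 to 0.07 with 13 arrays. Centring shifts all probe sets alike, so the members' median kept its distance of 0.12 above that of all probe sets. Under quantile normalization that distance was 0.04 with 13 arrays.

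Pde8a encodes a phosphodiesterase with high affinity for cAMP. Its bright probe set 1376057_at gave signals of 451, 2534 and 3905 (lowest, median and highest) in 7 obese rats and of 412.5, 483 and 2306 in 8 lean rats. In 6 obese rats the signal was between 1820 and 3905, and obese rat 1, of the near-identical pair, stood alone at 451. In 6 lean rats it was between 412.5 and 674, while lean rats 1 and 3 had 2124 and 2306, inside the obese range. The groups therefore overlapped through 3 rats, and no rat of either group had a signal between 674 and 1820. The log2 fold change, obese minus lean, was 1.45 ± 0.43 (SE) with 15 arrays and 1.72 ± 0.38 with 13. The obese mean was 2433 ± 1108 (SD, n = 7) and the lean mean 920.4 ± 805 (SD, n = 8). Fold changes throughout are on the scale log2(signal + 79.9), which understates those of dim genes.

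**Figure D2:**
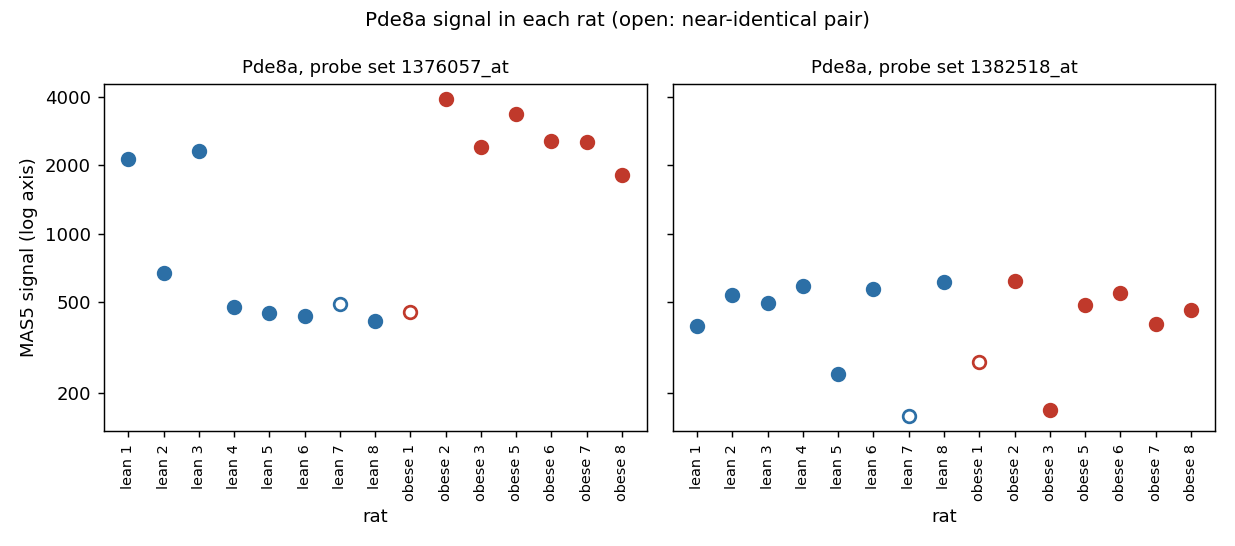
MAS5 signal of the 2 Pde8a probe sets in each rat (log axis; lean in blue, obese in red, open symbols the near-identical pair of lean 7 and obese 1). In the left panel 7 rats lie between 412.5 and 674 and 8 rats between 1820 and 3905, and in the right panel the groups overlap throughout.

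The second Pde8a probe set, 1382518_at, did not show this difference. It fell below the filter, with signals of 168, 464 and 619 in obese and 158, 517 and 616 in lean rats. Its log2 fold change, fitted without a filter, was -0.07 ± 0.26 with 15 arrays and -0.15 ± 0.24 with 13. Within the groups the correlation between the 2 probe sets was 0.02 over 13 rats (permutation p = 0.961, adjusted p = 0.961 over 12 pairs of probe sets; Spearman's rho -0.10). Which transcript regions the probe sets read was not analysed here. The bright probe set had a mean log2 signal of 9.64 in lean rats, where the lowest mean that passed the filter was 9.25. Lean rats 1 and 3, at 11.11 and 11.22, carried that lean mean, and 5 of the 8 lean rats were below 9.25, between 8.94 and 9.15.

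Array measures are given here beside the Pde8a signal. The macrophage list mean was -0.28 in obese rat 1, the lowest of the obese group, and 0.03 and -0.21 in lean rats 1 and 3, the highest values of the lean group. Lean rats 8 and 7 were close to lean rat 3, at -0.23 and -0.24, but had Pde8a signals of 412.5 and 488.5. Obese rats 6 and 3 had means of 1.15 and 0.04 and similar Pde8a signals, 2552.5 and 2401.7. The part of the macrophage mean in the Pde8a levels was not tested. With the macrophage list mean as a covariate the Pde8a log2 fold change was 0.43 ± 0.54 with 15 arrays and 1.09 ± 0.63 with 13. The groups were fully apart on this mean with 13 arrays. Values with this covariate, here and for the members below, therefore cannot separate it from the group. All 19 macrophage markers had a positive log2 fold change, with a median of 0.88 on 13 arrays, and 8 of them passed the limma threshold on 13 arrays and 0 on 15. With the Gapdh ratio as a covariate the Pde8a value was 1.30 ± 0.51 with 15 arrays and 1.80 ± 0.47 with 13. In bulk tissue, fewer cells of a type and less RNA per cell cannot be told apart.

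The genes whose pattern across rats was most like that of Pde8a 1376057_at were sought within the groups, after the group means were removed, over 13 rats. They were Cd37, a tetraspanin of leukocytes (r = 0.90), F8, clotting factor VIII (r = 0.86), Scrib, a cell polarity scaffold (r = 0.84), Dpy19l3, a mannosyltransferase (r = 0.82), and Kmt2a, a histone methyltransferase (r = 0.82). Without lean rats 1 and 3, the 2 rats farthest from the median of Pde8a, these values were 0.72, 0.75, 0.63, 0.67 and 0.42. By group, r was 0.75, 0.92, 0.44, 0.65 and 0.05 over 6 obese rats. Over 7 lean rats, with lean rats 1 and 3 among them, it was 0.92, 0.86, 0.97, 0.84 and 0.89. With 15 arrays Cd37 had r = 0.93 and Kmt2a r = 0.21, and 1 of the 5 genes stayed among the top 5. The values are a description with no p, because the genes were picked for them among all genes, and the rats share the same arrays and scaling. The other member probe sets above the filter had r with Pde8a between -0.44 (Prkar1a 1386905_at) and 0.35 (Adcy3).

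Pde3b, the phosphodiesterase through which insulin lowers cAMP in fat cells, had signals of 5071, 6447 and 7636 in obese and 5069, 6058 and 6633 in lean rats. The ranges started together, and obese rats 1, 2 and 8 were above the highest lean rat. The log2 fold change was 0.10 ± 0.10 with 15 arrays and 0.11 ± 0.11 with 13, about the size of its standard error. With the macrophage covariate it was 0.25 ± 0.14 with 15 arrays and 0.29 ± 0.18 with 13.

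Pde4b, a cAMP-specific enzyme of the rolipram-sensitive family, was read by 2 probe sets above the filter. Probe set 1374157_at had signals of 1171, 1636 and 3025 in obese and 1436, 1841 and 2438 in lean rats, with the highest and the lowest rats both obese. The difference, obese minus lean, was -0.15 ± 0.17 on the log2 scale with 15 arrays and -0.15 ± 0.18 with 13, and 0.02 with 13 arrays and the macrophage covariate. Probe set 1369044_a_at had signals of 238, 737 and 944 in obese and 524, 732 and 864 in lean rats. Obese rat 3 was alone at 238, and its log2 fold change of -0.06 ± 0.20 with 15 arrays became 0.14 without that rat. Median centring (0.04) and quantile normalization (0.04) also turned its sign.

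Pde4d, a relative of Pde4b, had 3 probe sets and only 1 above the filter. That probe set, 1370569_at, had signals of 717, 1005 and 1406 in obese and 1028, 1228 and 1753 in lean rats. It was below the lowest lean rat in 4 of 7 obese rats, and the highest obese rat stood inside the lean range. The log2 fold change was -0.30 ± 0.15 with 15 arrays and -0.38 ± 0.16 with 13. With the macrophage list mean as a covariate it was 0.006 with 15 arrays and -0.07 with 13. The dim probe sets 1368750_a_at and 1392968_at had log2 fold changes, fitted without a filter, of 0.18 ± 0.21 and -0.17 ± 0.35 with 15 arrays. Signals of 1368750_a_at were between 24.1 and 213 in all rats, a level at which MAS5 values are noisy.

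**Figure D3:**
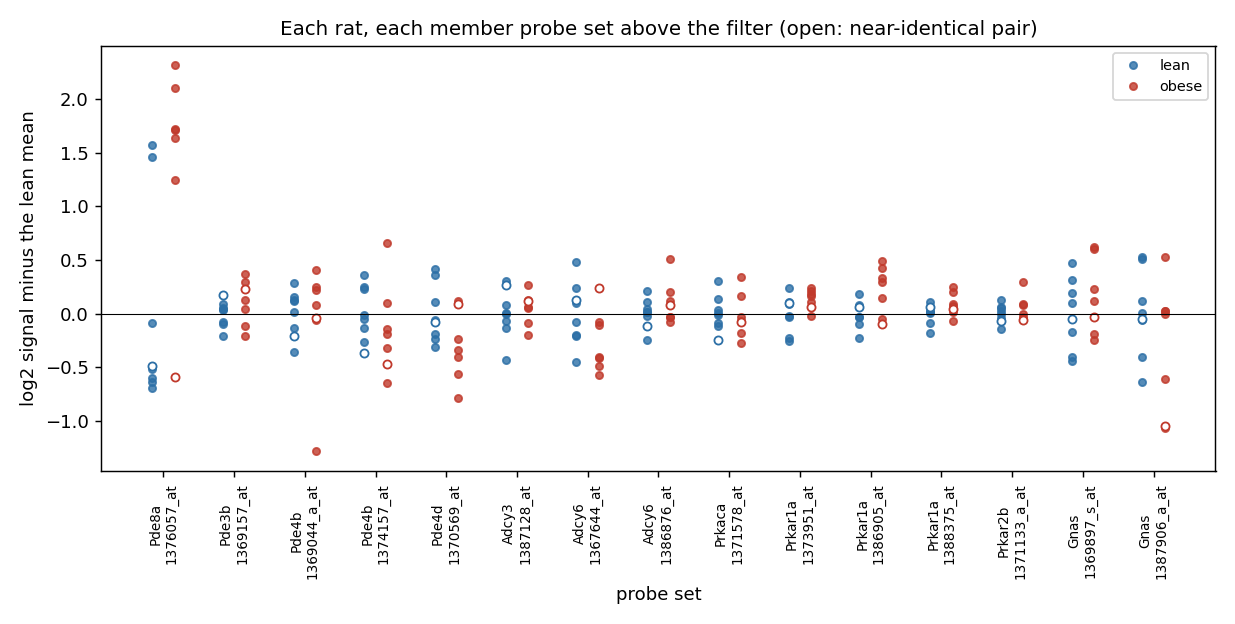
Log2 signal of each rat minus the lean mean for the 15 member probe sets above the filter (lean in blue, obese in red, open symbols the near-identical pair). Obese and lean rats overlap in every probe set, and the widest spread is that of Pde8a 1376057_at.

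Adcy3, an adenylyl cyclase present in fat, had signals of 3163, 3812 and 4415 in obese rats, and every obese rat lay inside the lean range of 2675 to 4507 (median 3645). On the log2 scale the fold change was 0.05 ± 0.11 with 15 arrays and 0.08 ± 0.12 with 13. Without lean rat 8 the 15-array value was -0.01.

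The 2 probe sets of Adcy6, a cyclase inhibited by calcium, had log2 fold changes of opposite sign. The brighter, 1367644_at, had signals of 7403, 8323 and 13079 in obese and 8079, 11149 and 15506 in lean rats. Only obese rat 1 was above the lean median, and 2 obese rats were below every lean rat. Its log2 fold change was -0.26 ± 0.15 with 15 arrays and -0.33 ± 0.15 with 13, and with the macrophage covariate 0.12 and 0.06. The Gapdh covariate gave -0.0090 ± 0.11 with 15 arrays and -0.05 ± 0.12 with 13. The dimmer, 1386876_at, had signals of 1813, 2028 and 2760.3 in obese and 1598.5, 1936 and 2232.5 in lean rats, and obese rat 3 was above all others. For this probe set the log2 fold change was 0.11 ± 0.10 with 15 arrays and 0.10 ± 0.11 with 13. Within the groups the 2 probe sets had r = 0.13 over 13 rats (permutation p = 0.641, adjusted p = 0.961, Spearman's rho 0.10).

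Prkaca, the alpha catalytic subunit of PKA, had signals of 3213, 3727 and 4991 in obese and 3284, 3900 and 4841 in lean rats. The ranges nearly coincided, and the log2 fold change was -0.02 ± 0.11 with 15 arrays and -0.04 ± 0.12 with 13. Its sign turned under 7 of the 15-array alternatives, median centring among them (0.08).

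Prkar1a, the type I alpha regulatory subunit, had 3 probe sets above the filter, and all had positive log2 fold changes, apart from 1373951_at with 13 arrays and the macrophage covariate (-0.02). The largest was that of 1386905_at, with signals of 1194, 1588 and 1827 in obese and 1085, 1296.5 and 1468 in lean rats. Obese rats 3, 5, 7 and 8 were above the highest lean rat, and obese rats 1 and 2 were below the lean median. The log2 fold change was 0.22 ± 0.10 with 15 arrays and 0.28 ± 0.11 with 13. Probe set 1373951_at had 0.13 ± 0.09 and 0.16 ± 0.10, with signals from 9630.2 to 11606 in obese and 8204.5 to 11580.1 in lean rats. Probe set 1388375_at had 0.08 ± 0.08 and 0.10 ± 0.09, with signals from 14574 to 18164 in obese and 13499 to 16519.6 in lean rats. Median centring made the latter 0.19 with 15 arrays and 0.22 with 13. Between the 3 probe sets no correlation from rat to rat passed the threshold, with r between -0.14 and 0.04 within the groups (13 rats, permutation test, smallest adjusted p = 0.961).

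Prkar2b encodes the type II beta regulatory subunit, the main one of white fat. Its signals were 36442, 37879 and 46460 (lowest, median and highest) in obese and 34247, 38219 and 41326 in lean rats. Obese rat 7 alone was above the lean range, and the log2 fold change was 0.05 ± 0.08 with 15 arrays and 0.05 ± 0.09 with 13. Under quantile normalization it was -0.05 with 15 arrays. With 13 arrays it was 0.17 under median centring and 0.21 ± 0.15 with the macrophage covariate.

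Gnas is an imprinted locus with several first exons, and which of its transcripts each probe set reads was not analysed here. The brightest probe set, 1369897_s_at, had signals of 42252, 54139 and 77231 in obese and 36812, 50983 and 69358 in lean rats, with a log2 fold change of 0.16 ± 0.16 with 15 arrays and 0.18 ± 0.19 with 13. Probe set 1387906_a_at had 306, 723 and 1085 in obese and 437, 714 and 1081 in lean rats, and a log2 fold change of -0.31 ± 0.24 with 15 arrays and -0.19 ± 0.24 with 13. Obese rats 1 and 7 lay below every lean rat on it. The third, 1390263_at, was below the filter, and its log2 fold change without a filter was 0.04 ± 0.45 with 15 arrays.

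The same dim probe set split the rats into 2 levels that did not follow the diet. The levels did follow the rat number: in both groups the rats numbered 3 to 6 were low and those numbered 1, 2, 7 and 8 were high. The part of the rat number in the split was not tested. It read between 26.3 and 77.4 in 7 rats (obese 3, 5 and 6 and lean 3, 4, 5 and 6) and between 268 and 618 in 8 rats (obese 1, 2, 7 and 8 and lean 1, 2, 7 and 8). The brightest probe set read 53567 to 77231 in the former and 36812 to 54139 in the latter, so the rats with the dim probe set low had the bright one high, with an overlap of 1 rat on each side. Because the rats fall into separate levels on this probe set, no correlation over all rats is given, and the pattern between the levels is a description. Within the low level, which lies below the 10th percentile of all signals (79.9), r was -0.11 over 7 rats (exact permutation p = 0.824, unadjusted). Within the high level r was -0.39 over 8 rats (exact permutation p = 0.355, unadjusted), and Spearman's rho was -0.10 (exact permutation p = 0.840, unadjusted). These 8 rats include the near-identical pair, which the test counts as separate rats. Group means were not removed within either level. The inverse pattern thus rests on the split between the levels, and the few rats limit the tests within them. The spike-in control cre, which is added to every hybridisation, read between 135672.5 and 511805 in the rats with the low level and between 88485 and 216897 in the others, and its part in the split was not tested.

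**Figure D4:**
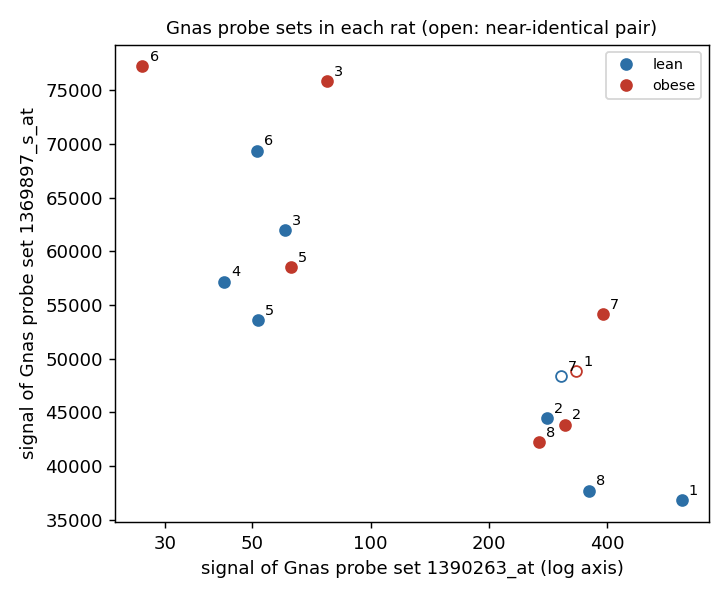
Signal of the brightest Gnas probe set against that of the dimmest (log axis) in each rat, numbered by rat, with lean in blue, obese in red and open symbols for the near-identical pair. The 7 rats at 26.3 to 77.4 on the horizontal axis read 53567 to 77231 on the vertical axis, and the 8 rats at 268 to 618 read 36812 to 54139.

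For the other 11 of 12 pairs of probe sets of the same gene, no correlation within the groups over 13 rats passed the threshold. They had r between -0.21 and 0.23, and the smallest adjusted permutation p for them was 0.961 for Pearson's r and 0.900 for Spearman's rho.

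The remaining genes of the pathway were taken from 10 lists with 128 genes, of which 89 had a probe set above the filter. In limma 0 of 89 passed the adjusted threshold of 0.05 with 15 arrays and 0 with 13. At an unadjusted p under 0.05 there were 11 and 12 of the 89, where all probe sets gave 15.6% and 17.8%. The smallest adjusted p was 0.133 with 15 arrays and 0.0803 with 13. Their median log2 fold change was -0.03 and -0.02, against -0.04 for all probe sets. Median centring brought 1 of the 89, Arrb2, past the threshold with 13 arrays (adjusted p = 0.032).

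**Figure D5:**
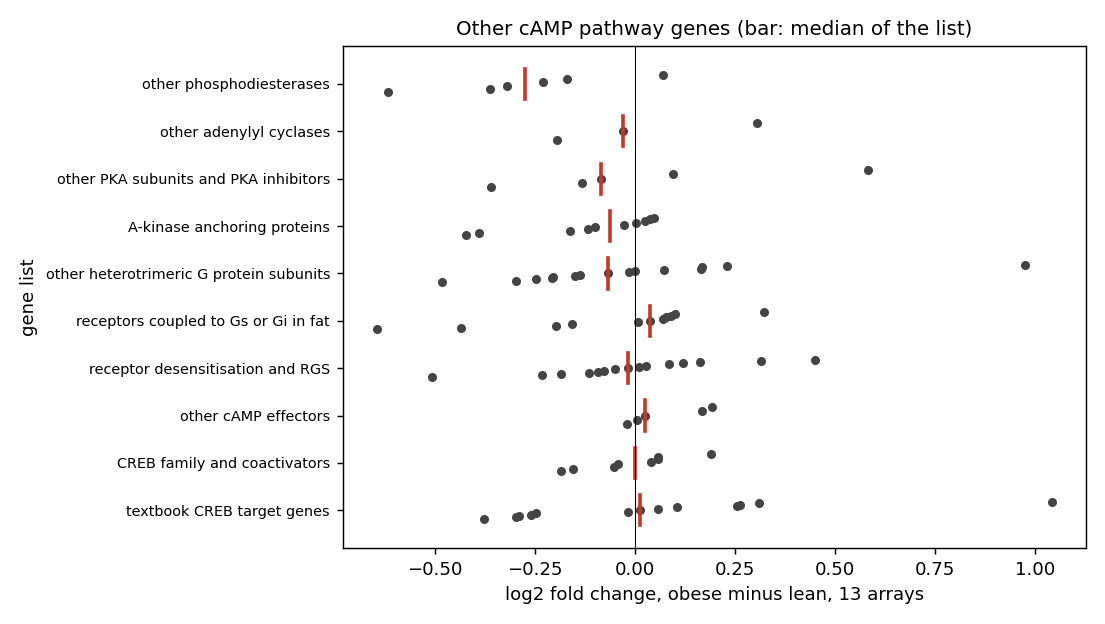
Log2 fold change, obese minus lean, with 13 arrays for each gene of the 10 pathway lists, 1 point per gene by its brightest probe set, with the list median as a red bar. The list medians run from -0.27 for the other phosphodiesterases to 0.04 for the receptors, and the extreme genes are Per1 at 1.04 and Adrb3 at -0.64.

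Upstream of the cyclases, the list of receptors that couple to stimulatory or inhibitory G proteins in fat had 11 of 23 genes above the filter, 7 with a positive and 4 with a negative value on 13 arrays. Adrb3, the beta-3 adrenergic receptor that drives lipolysis in rodent fat, had mean signals of 4986 ± 1849 (SD) in 6 obese and 7660 ± 2297 in 7 lean rats. Its log2 fold change was -0.64 ± 0.26, which missed the limma threshold (adjusted p = 0.214). Npy1r, a receptor for neuropeptide Y that lowers cAMP, had -0.43 ± 0.18 (adjusted p = 0.225). Of the other G protein subunits 15 of 17 were measured, 6 with a positive value. Gng2, a gamma subunit, had 0.97 ± 0.31 and a signal above the lean mean in 6 of 6 obese rats (limma adjusted p = 0.124), and Gnb5, a beta subunit, had -0.30 ± 0.12.

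Receptor desensitisation genes and regulators of G protein signalling had 15 of 16 genes measured, 7 with a positive value on 13 arrays and a median of -0.02. The arrestins, which uncouple receptors from G proteins, had the smallest p of this list. Arrb2 had 1209 ± 261 (SD) in 6 obese and 857 ± 117 in 7 lean rats, which is 0.45 ± 0.13 on the log2 scale (limma adjusted p = 0.100). Arrb1 had 0.31 ± 0.11 (adjusted p = 0.167).

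The other phosphodiesterases had 6 of 14 genes above the filter, 5 of them with a negative value, and a median of -0.27 with 13 arrays and -0.23 with 15. Under quantile normalization 6 of 6 were negative and under median centring 5 of 6. None of the 6 passed the limma threshold in either set of arrays. Pde10a, which breaks down both cAMP and cGMP, had -0.62 ± 0.30 (adjusted p = 0.298), and Pde1b, which calcium and calmodulin activate, had -0.32 ± 0.16 (adjusted p = 0.314). Among the other adenylyl cyclases 3 of 8 were measured, and Adcy4 had 0.31 ± 0.12 and Adcy2 had -0.19 ± 0.10.

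The other PKA subunits and PKA inhibitors had 5 of 6 genes measured, 2 with a positive and 3 with a negative value. Pkia, an inhibitor protein of the catalytic subunit, had 3541 ± 1060 (SD) in 6 obese and 2275 ± 356 in 7 lean rats by its brightest probe set, which is 0.58 ± 0.17 on the log2 scale (limma adjusted p = 0.101), and its other probe set had the opposite sign. Prkar1b, a regulatory subunit, had -0.36 ± 0.26. The A-kinase anchoring proteins, which hold PKA at its sites in the cell, had 10 of 14 measured, 4 with a positive value on 13 arrays, 6 under median centring and 1 under quantile normalization. Akap12 had 7776 ± 724 (SD) in 6 obese and 10491 ± 1536 in 7 lean rats, with all 6 obese rats below the lean mean. Its log2 fold change was -0.42 ± 0.11, with the smallest adjusted p of the 89 genes (0.0803). Akap6 had -0.39 ± 0.16.

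Downstream, the other cAMP effectors had 5 of 8 genes measured, with Rap1b, a small GTPase, at 0.19 ± 0.13 and Popdc2, a membrane protein that binds cAMP, at 0.17 ± 0.17. The CREB family and its coactivators had 8 of 9 measured, 4 in each direction, with the acetyltransferases Crebbp at -0.15 ± 0.11 and Ep300 at -0.18 ± 0.15. The probe sets of Crebbp differed in sign. Textbook targets of CREB had 13 of 15 measured, 7 with a positive and 6 with a negative value, and a median of 0.01. Per1, a clock gene that CREB induces, had the largest log2 fold change of all 89 genes, 1.04 ± 0.37 with 13 arrays (limma adjusted p = 0.161) and 0.86 ± 0.35 with 15 (adjusted p = 0.254). Junb, a subunit of AP-1, had 0.26 ± 0.13. Among the 20 pathway genes named here, the sign was the same with 15 and 13 arrays and, with 13 arrays, under median centring and quantile normalization. The size moved more: under median centring Adcy2 went from -0.19 to -0.08, Crebbp from -0.15 to -0.04 and Ep300 from -0.18 to -0.07, and under quantile normalization Rap1b went from 0.19 to 0.09.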

How the data were processed

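The deposited values are intensity values: MAS5 signals on a linear scale, per the submitters' processing notes, with the MAS5 version not given in the sources used here. Every array had a 2% trimmed mean of about 1500.4, so the deposited intensity values were used as scaled. The labels and the design text differ on the RNA input and the extraction reagent. Of 31042 probe sets that were not controls, 20826 named 1 gene in the platform annotation, 436 several and 9780 none.

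The 10th percentile of all signals, 79.9, was added before taking log2. Probe sets with a mean above the 40th percentile (18625) were fitted with lmFit and eBayes of limma 3.58.1, run in R 4.3.3 (obese minus lean, Benjamini-Hochberg adjustment over all of them, threshold 0.05), with 15 arrays and with 13. The number of rats limits the precision, and the limma p-values set a group difference against the spread between these rats. The step was tested on simulated data. A gene outside the members was taken by its brightest probe set. The genes named were all member probe sets, in each pathway list those past the threshold or otherwise the 2 with the smallest p on 13 arrays, and the 5 most like Pde8a. The members and lists were chosen with earlier results of these data known. Correlations between probe sets used 100000 permutations, and those within the Gnas levels used all permutations. Array measures used exact two-sided permutation tests. Alternatives were other pseudocounts, filters and normalizations, array weights, a trended and robust eBayes, a block for the rat number, covariates for the Gapdh ratio and the macrophage list, each rat left out, and probe sets averaged per gene. Correlations of deviations between same-numbered rats ran from -0.11 to 0.24 with 15 arrays and from -0.12 to 0.23 with 13. The levels of the dimmest Gnas probe set followed the rat number in both groups. Whether the rat number pairs the groups was not tested beyond these correlations and the block. Figures were drawn with matplotlib 3.10.9.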

Additional observations from a re-analysis of the deposited data

Results flagged for a closer look

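In 3 of 34 groups of rats tested, 1 rat stood apart from the rest of its group by Dixon's test; chance gives about 1 in 20. For Pde8a 1376057_at, obese rat 1 was the lowest obese rat at 9.05 on the log2 scale, with the next at 10.89; this rat is in the near-identical pair. For Pde4b 1369044_a_at, obese rat 3 was the lowest obese rat at 8.31, with the next at 9.54. For Prkar2b, obese rat 7 was the highest obese rat at 15.51, with the next at 15.31.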

How the results depend on the processing

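With 15 arrays the count of members called was 0 in 26 of 27 alternatives; leaving out each rat gave 0 to 1, with Pde8a called without obese rat 1. With 13 arrays the count of 1 (Pde8a) became 0 with a pseudocount of 1, with no filter, under quantile normalization, with the rat number as a replicate block, and with the Gapdh ratio or the macrophage list as a covariate. Leaving out each rat gave 0 to 1 with 13 arrays: the call was kept without lean rat 1 or lean rat 3 and lost without any of the other 11 rats. The block also took the calls over all probe sets from 189 to 3 with 13 arrays, and with 15 arrays it left both at 0. It held only rats whose number occurred in both groups, which were 2, 3, 5, 6 and 8 with 13 arrays. Its effect and that of the fewer rats therefore cannot be told apart. Of the obese rats, 1 of 7 with 15 arrays and 2 of 5 with 13 correlated best with the lean rat of their own number. The Pde8a log2 fold change stayed positive in all alternatives run, from 0.43 to 1.79 with 15 arrays and from 1.09 to 1.97 with 13. Calls over all probe sets ran from 0 to 245 with 15 arrays, with 245 without obese rat 1, 49 with the filter at the 60th percentile and 8 with trend and robust. They ran from 0 to 389 with 13 arrays, with 389 under median centring, 334 with the stricter filter, 309 with trend and robust, 46 with no filter, 124 under quantile normalization or with a pseudocount of 1, 14 with the Gapdh covariate and 0 with the macrophage covariate. The causes were not tested. Of the 5 genes most like Pde8a, 1 stayed in the top 5 with 15 arrays and 2 with Spearman's rho. Over the 15 member probe sets, 4 of 398 values with 15 arrays and 8 of 368 with 13 moved by more than the spread, and the sign was the same under every alternative for 8 and 7 probe sets. The number of arrays and the noise of MAS5 at low signals limit the dim probe sets.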

Other observations

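The split of Pde8a 1376057_at into 2 levels was set against all probe sets with a measure chosen after its values were seen: the widest empty interval with at least 5 arrays on each side. For Pde8a it was 1.33 on the log2 scale, second among 18625 probe sets, where the median was 0.10 and the 99th percentile 0.40. Among members above the filter the next was Gnas 1387906_a_at at 0.34, rank 319, and the others ranked 2040 or lower. The dimmest Gnas probe set was below the filter and so was not ranked. It had an empty interval of 1.15 between its 2 levels, close to that of Pde8a. Genes next to Pde8a in the RefSeq annotation order of GRCr8, also looked at after the fact, had no comparable difference. With 13 arrays Alpk3, an alpha kinase, had a log2 fold change of -0.55 ± 0.31 (limma adjusted p = 0.369), and Sec11a, Zfp592, Wdr73, Cpeb1 and Whamm lay between -0.17 and 0.13.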
